A study of Mus musculus with 24 samples.

Results

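Toll-like receptors 2 and 4 (Tlr2 and Tlr4) were 2 of the 82 distinct genes that appeared in any of 4 deposited tables of genes differing between Smarcad1 knockout (KO) and wild-type (WT) mouse gut epithelium. They were chosen by name. Tlr4 entered the tables through the comparison in intestinal stem cells and Tlr2 through the comparison in transit amplifying cells, so those 2 differences were used in the choice and are given as a description. The 24 libraries fell into 8 groups of 3, from WT and KO mice across 4 sorted cell types. The mice were males of the C57BL/6 Lgr5-GFP strain, in which a GFP knock-in at Lgr5 marks stem cells of the crypt and which WT and KO mice shared. The knock-in (Lgr5-EGFP-IRES-creERT2) also holds a Cre sequence, and the study's methods name Lgr5-GFP mice for the stem and transit amplifying cell sorts. KO mice carried floxed Smarcad1 (a SNF2-family chromatin remodeller) and a Villin-Cre transgene, which is active in epithelium of the small and large intestine, and all came from a single targeted line. Ages are not given in the sources used here.

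Intestinal stem cells (ISC) were the GFP-high and transit amplifying cells (TA) the GFP-medium cells of small intestinal crypts. These 2 gates used no antibody against the epithelial protein Epcam, the leucocyte protein CD45 or the endothelial protein CD31. Absorptive enterocytes (AE) of the small intestinal villus and colonocytes (CO) of the colon crypt were sorted as cells high for Epcam and negative for CD31 and CD45. Of the defining markers of the 4 sorted types, only Ascl2, an ISC transcription factor, was in the tables, with WT log2 levels of 3.84 in CO, 6.05 in ISC, 4.24 in TA and -0.18 in AE. The labels of TA, AE and CO could not be checked further, because 0 of the 4, 7 and 5 markers listed for them were in any table.

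Toll-like receptors are membrane proteins that recognise conserved microbial molecules and signal, mostly through the adaptor Myd88, to NF-kB and interferon regulatory factors. Tlr4 senses lipopolysaccharide of Gram-negative bacteria with its partners Ly96 and Cd14, whereas Tlr2 pairs with Tlr1 or Tlr6 to sense bacterial lipoproteins. Gut epithelium faces a dense microbiota, and its Toll-like receptors are known for low or regionally restricted expression.

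The genes differ in their annotated extent. Tlr4 (ENSMUSG00000039005) lies on the plus strand at chr4:66827584-66930284 of GRCm38 in the GENCODE M21 annotation, with 4 transcripts and 6 merged exons of 5556 nt in all. Its longest transcript, of 4077 nt and 3 exons, ends at position 66842800, and all 3 exons hold coding sequence. A second coding transcript runs on to the far end of the gene through distal exons of 1390 nt. Tlr2 (ENSMUSG00000027995) lies on the minus strand at chr3:83836272-83841767, with 1 transcript of 3 exons and 3014 nt, and its whole coding sequence is in 1 exon. No other annotated gene overlapped either of them. Windows of 50 bases, the read length, were taken from the spliced transcripts of each gene. Of the distinct windows, 12 of 5551 in Tlr4 (0.216%) and 0 of 2965 in Tlr2 also occurred in the transcripts of another gene. Few reads of either gene could thus have been shared with another annotated transcript, and the rest of the genome was not searched.

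**Figure D1:**
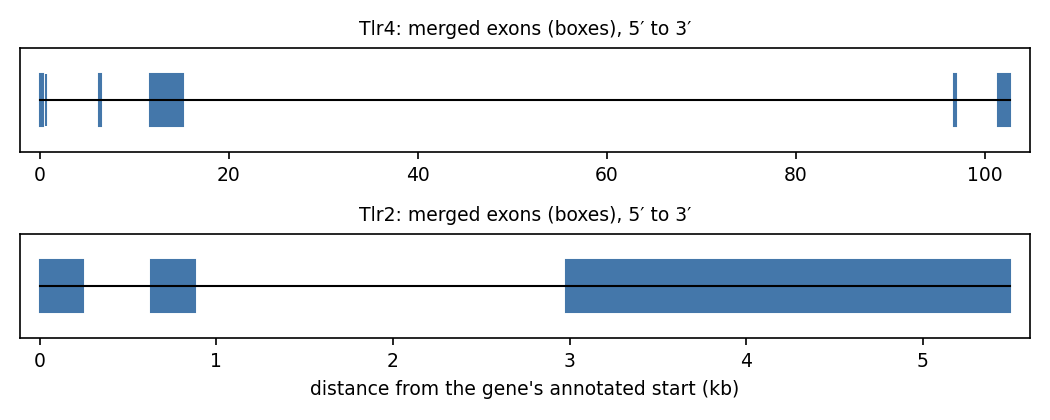
Merged exons (boxes) of Tlr4 and Tlr2 along each gene, plotted as distance in kb from the annotated start, with a separate scale for each gene. Tlr4 spans 102701 bp with 2 exons far from the other 4, and Tlr2 spans 5496 bp.

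The sequence just before the start of Tlr2 is shown because the gene is a known target of the pathway it feeds, through NF-kB. These 91 bases (RefSeq, GRCm38.p6, chr3:83841768-83841858, minus strand) lie immediately upstream of the annotated start, and capitals mark the stretch that matches the NF-kB consensus.

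Tlr2 promoter: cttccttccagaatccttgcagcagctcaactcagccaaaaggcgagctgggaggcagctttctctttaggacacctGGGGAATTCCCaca

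The stretch begins 14 bases before the annotated start and holds 2 overlapping matches on this strand and 1 on the other. Of 32851 promoter windows of the same length, 742 (2.26%) held at least 1 match on either strand. A match describes letters only, and binding was not measured. No promoter is shown for Tlr4.

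Each deposited value is a mean that the authors took over the 3 libraries of a group, of log2 reads normalised to a library's total reads, and no values per library were used here. The read numbers behind low values could be worked out all the same. Each group value was the mean of 3 log2 values in which 0.9 stood for 0 reads. With a group's lowest value taken as 0 reads in every library, 51 of the 52 values with a product of at most 20000 gave a whole number for the product of the libraries' reads within a tolerance of 0.02, against 6, 6 and 3 with 0.5, 0.8 or 1 in place of 0.9. The value left over was that of another gene in KO ISC, where the lowest value may stand for a read, so the read numbers of that group are approximate. If the scale is reads per 1000000, which the sources used here do not state, the geometric mean totals per library were between 31600000 and 39000000 reads, differing at most 1.23-fold. The targeted gene Smarcad1 was at 54.8% of WT in KO CO, 66.0% in AE, 54.4% in TA and 58.8% in ISC, as counted over all its exons and not only the deleted ones. The spread between libraries cannot be had from group means, so no difference below has an error or a test, and none could be set against the spread between mice.

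In WT mice Tlr4 was highest in the sorted colonocytes and close to absent from the cells sorted from small intestine. Its WT level was 4.41 in CO on the log2 scale, -2.42 in ISC, -4.25 in AE and -4.57 in TA. The CO level was thus 114-fold that of the next cell type, ISC, while AE and TA were 1.25-fold apart. In reads, WT CO had a geometric mean of 749 per library. The WT TA value came from 5 reads in 1 library with 0 reads in the other 2 libraries, and the WT AE value from 6 reads in 1 library with 0 in the other 2. At this depth Tlr4 was therefore at the limit of detection in WT TA and AE, and these neighbours in the order differed by 1 read. In WT ISC all 3 libraries had reads, with a geometric mean of 7.27 and a product of 384, which allows a total of 22 to 386 reads.

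In KO mice Tlr4 was higher in all 3 cell types sorted from small intestine. Its KO level was 4.74 in CO, 1.56 in ISC, -0.95 in AE and -2.20 in TA. The KO minus WT difference came to 3.98 for ISC (15.8-fold), 3.31 for AE (9.91-fold), 2.38 for TA (5.19-fold) and 0.33 for CO (1.25-fold). As deposited, KO and WT were furthest apart in ISC, the comparison through which Tlr4 was chosen, and nearest in CO, but with a pseudocount of 1 they were nearest in TA, at 0.23 compared with 0.31 in CO. Among the 82 genes, these ranked 3, 2, 5 and 23 from the highest difference of their cell types. A gene had to be listed in at least 1 cell type to be among the 82, so these ranks are not ranks among all genes of the mouse. Among these 4 cell types, Tlr4 was listed by the authors, at their limit of 0.1 on the false discovery rate, in ISC only. The paper also names Tlr4 among genes that differed in small intestinal organoids, which were not used here. The genes listed as higher made up 12.2% of the 82 in TA, 20.7% in AE and 14.6% in CO. Higher values listed in ISC made up 6.1% of the 82 genes, and differences of at least 1 made up 26.8% (ISC), 17.1% (TA) and 15.9% (AE and CO). Of the 82 genes, 7 (8.54%) were at least 1 higher in each of the 3 small intestinal types, and Tlr4 was 1 of them, though not with a pseudocount of 1, which put it at 0.23 in TA and 0.53 in AE. It was also among the 13 genes (15.9%) higher in KO in all 4 cell types, leaving out differences between 2 lowest values.

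The read numbers show how much stands behind each of these differences. The KO ISC value corresponded to a geometric mean of about 97.0 reads per library. In KO TA all 3 libraries had reads, with a geometric mean of 7.27 and a total of at least 22 reads, compared with the 5 reads of WT TA. In KO AE, likewise, the geometric mean was 16.4 and the total at least 51 reads, compared with the 6 reads of WT AE. Comparing summed reads, at equal depth within a group, put the difference at no less than 2.32 in TA and 3.12 in AE, so it did not rest on the value that stood for 0 reads. No such limit could be set for ISC, where the WT value allows up to 386 reads. A pseudocount of 1 on the linear scale, by contrast, reduced the differences to 0.53 in AE, 0.23 in TA and 1.73 in ISC, where most levels were below 1 on that scale, and left 0.31 in CO. With it, Tlr4 ranked 5 from the highest in ISC but 34 in TA and 21 in AE. How the reads of a group with 3 positive libraries were divided among them cannot be known from the mean, and a single high library in KO was not tested.

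**Figure D2:**
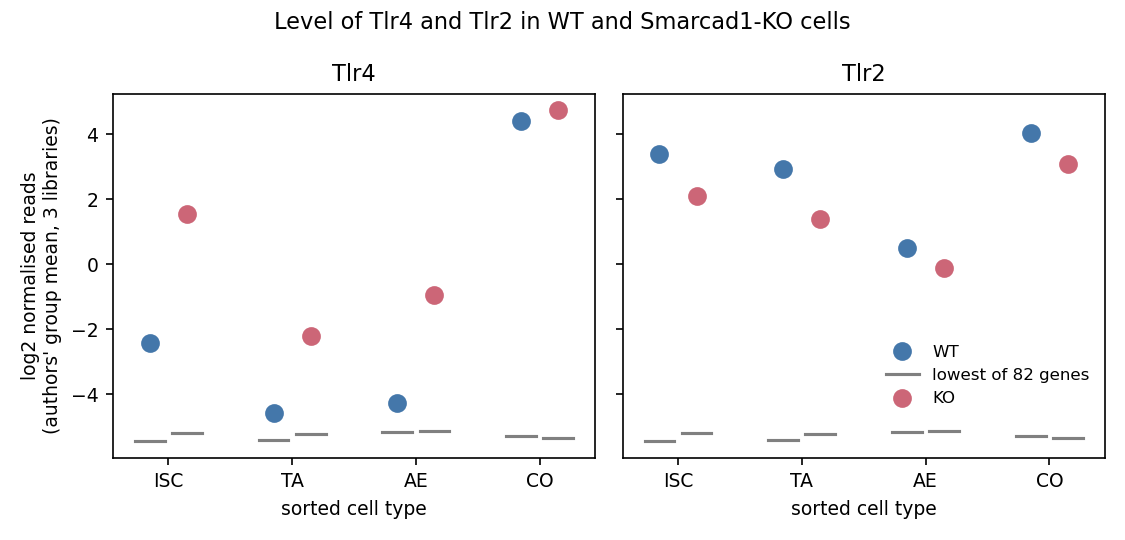
Level of Tlr4 (left) and Tlr2 (right) in each sorted cell type, as log2 normalised reads, with WT in blue and KO in red; each point is the authors' mean of 3 libraries and no error is available. Grey lines are the lowest value of any of the 82 genes in that group; Tlr4 in WT TA and AE lies just above them, while Tlr2 is far above them in every group.

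Tlr2 was expressed in the cells sorted from crypts of both small intestine and colon, and least in the sorted villus enterocytes. Its WT level was 4.02 in CO, 3.40 in ISC, 2.93 in TA and 0.49 in AE on the log2 scale. The steps between CO, ISC and TA were 1.54-fold and 1.39-fold, and the step from TA down to AE was 5.42-fold. In reads these levels were geometric means of 573, 412, 290 and 45.5 per library, so that no Tlr2 value was near the limit of detection. The higher value in CO than in ISC, 0.62, became -0.47 when each level was taken relative to the median of genes not listed, so the order of these 2 cell types was not settled by the values.

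KO mice had less Tlr2 than WT mice in each of the 4 cell types. The KO level was 3.09 in CO, 2.11 in ISC, 1.38 in TA and -0.11 in AE, or geometric means of about 309, 142, 86.7 and 29.3 reads per library. KO minus WT came to -1.55 for TA, -1.29 for ISC, -0.93 for CO and -0.60 for AE, which put KO at 34.1%, 40.8%, 52.4% and 65.8% of WT. The crypt cells of the small intestine thus showed the lowest values and the villus cells the one nearest to WT. The difference in TA was rank 2 and that in ISC rank 6 from the lowest of the 82 genes, whereas those in AE and CO were at ranks 11 and 34. The authors listed Tlr2 in TA only, where lower genes in the table made up 6.1% of the 82 (2.44% in ISC, 3.66% in AE and 53.7% in CO). Differences of -1 or below made up 3.66% of the 82 genes in AE, 4.88% in TA and 7.32% in ISC, and 2 genes (2.44%), Tlr2 included, passed in TA and ISC together. It was among 8 genes (9.76%) lower in KO in all 4 cell types. In CO, 37.8% of the 82 genes were at least 1 lower in KO, and many were lower still than Tlr2.

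**Figure D3:**
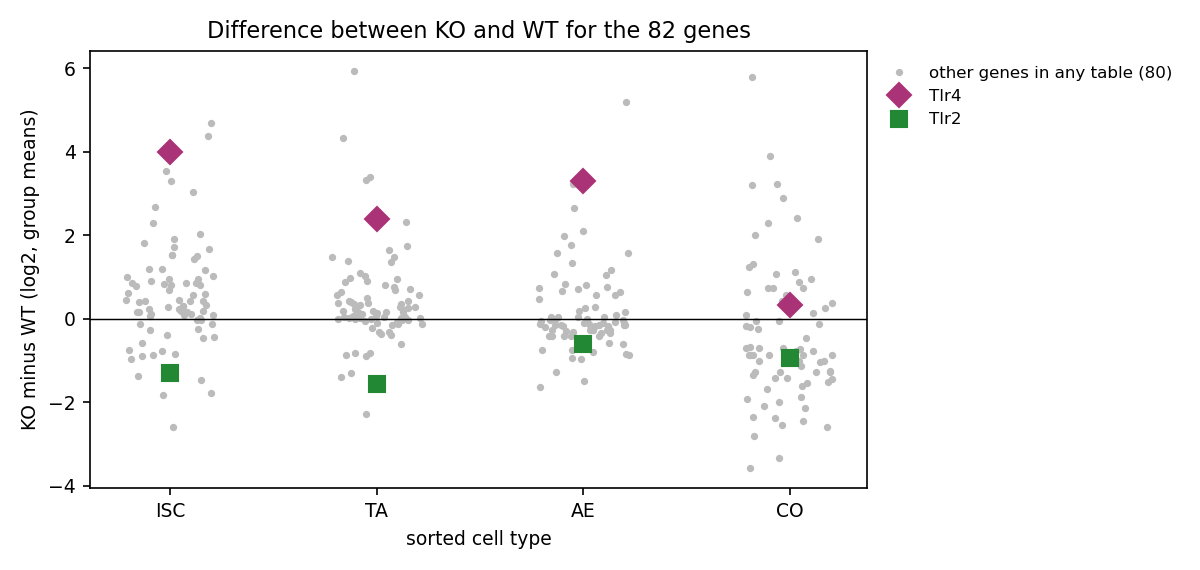
KO minus WT difference of group means on the log2 scale for the 82 genes in each sorted cell type; grey points are the other 80 genes, spread sideways at random. Tlr4 (diamonds) is at 3.98, 2.38, 3.31 and 0.33 from left to right and Tlr2 (squares) at -1.29, -1.55, -0.60 and -0.93.

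As deposited, the levels ran in the order CO, ISC, AE and TA for Tlr4 and CO, ISC, TA and AE for Tlr2 in both genotypes. In WT, however, AE and TA differed by 1 read for Tlr4, and CO and ISC changed places for Tlr2 relative to the median of genes not listed. The distances between cell types differed between genotypes. For Tlr4, CO was 6.84 above ISC in WT and 3.18 above it in KO, or 114-fold and 9.06-fold. For Tlr2, CO was 0.62 above ISC in WT and 0.98 above it in KO.

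Tlr4 was higher and Tlr2 lower in the KO cells sorted from small intestine, and the balance between them differed between genotypes. Per kb of merged exon, Tlr2 exceeded Tlr4 in WT by 8.39 (TA), 6.71 (ISC), 5.63 (AE) and 0.49 (CO) on the log2 scale. In KO the excess was 4.46 (TA), 1.44 (ISC) and 1.72 (AE), and in CO Tlr4 was the higher gene, at -0.76. The WT excess of Tlr2 was far smaller in CO than in the cell types of the small intestine. Per-kb levels of Tlr2 were thus 105-fold those of Tlr4 in WT ISC and 2.70-fold in KO ISC. The difference in WT CO was 0.048 when the longest transcript of each gene set the length and -0.39 without division by length, so the receptors could not be ranked there. Gene length and library scaling cancel in the change of the Tlr4 to Tlr2 ratio from WT to KO, which on the log2 scale was 1.26 for CO, 5.27 for ISC, 3.93 for TA and 3.91 for AE. With a pseudocount of 1, these were 1.17, 2.85, 1.49 and 0.85. The changes in ISC and TA contain the differences through which the genes were chosen, so they are given as a description. Those in TA and AE rest on WT Tlr4 values of 5 and 6 reads in 1 library each.

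**Figure D4:**
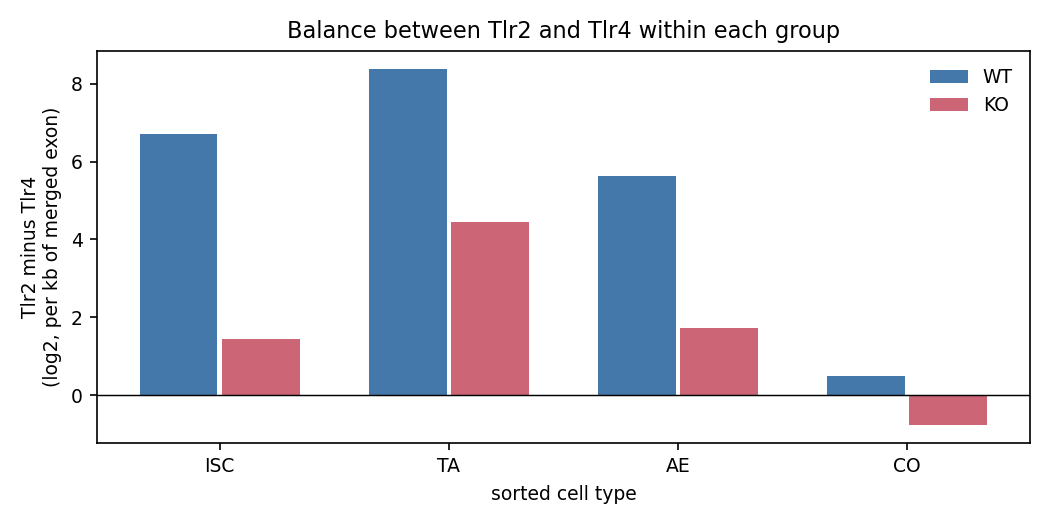
Tlr2 minus Tlr4 level within each group, on the log2 scale and per kb of merged exon, for WT (blue) and KO (red) cells of each sorted type. The first 3 pairs of bars are higher in WT, at 6.71, 8.39 and 5.63, than in KO, at 1.44, 4.46 and 1.72, and the CO bars lie either side of 0.

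The median KO minus WT difference of genes not listed in a cell type was 0.34 (ISC), 0.15 (TA), -0.16 (AE) and 0.11 (CO). Relative to it, and in the same order, Tlr4 was at 3.64, 2.22, 3.47 and 0.21 and Tlr2 at -1.63, -1.71, -0.44 and -1.04. The directions were those of the deposited values, but the Tlr4 difference in CO was no larger than the shift seen in ISC. Each of these reference genes was listed in another cell type.

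**Figure D5:**
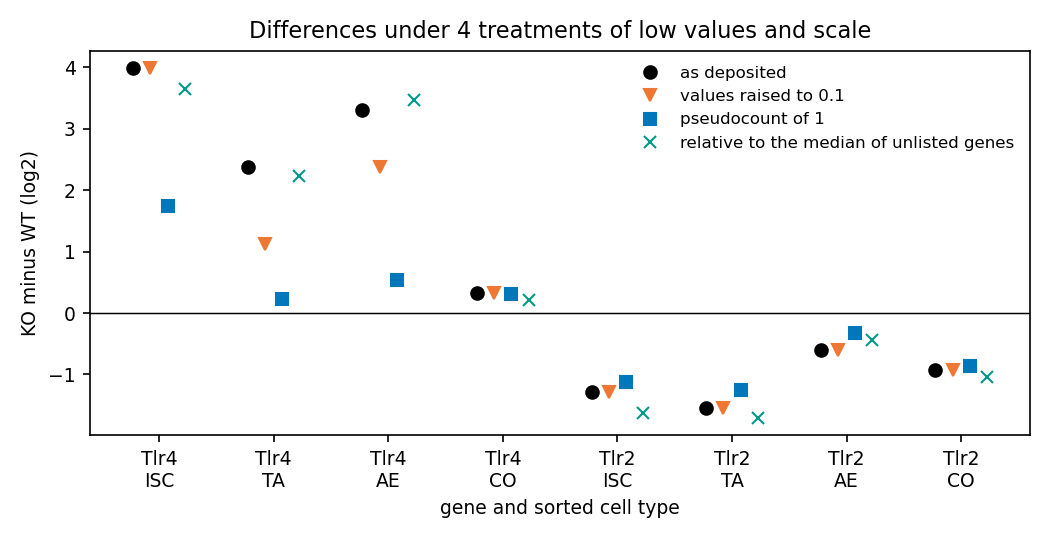
KO minus WT difference of Tlr4 and Tlr2 on the log2 scale in each cell type, as deposited, with values under 0.1 raised to 0.1, with a pseudocount of 1, and relative to the median of genes not listed. Tlr4 is above 0 and Tlr2 below 0 throughout, though of these settings only the last could have reversed a direction. Tlr4 in TA runs from 0.23 to 2.38 and in AE from 0.53 to 3.47.

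Of 52 genes of the Toll-like receptor pathway (receptors, co-receptors, adaptors, kinases, transcription factors and inhibitors), 3 were in any table, namely Tlr2, Tlr4 and Irf7. Irf7, the interferon regulatory factor downstream of endosomal receptors, was listed in CO, where it was lower in KO. Its level in CO was 5.31 in WT and 3.31 in KO, a difference of -2.00, and it differed by -0.17 in AE, 0.37 in TA and 0.79 in ISC. Irf7 therefore followed neither receptor across the cell types. Absence from the tables does not show whether a gene was expressed, and the other members of the list are not analysed here. Tnip1, which restrains NF-kB signalling and was picked out after its values were seen, was listed in CO with a difference of -0.86.

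Genes of leucocytes and Paneth cells gave the following values beside those of Tlr4. None of 12 immune markers and none of 5 stromal and endothelial markers were in the tables. The tables hold only genes listed as differing, so this absence does not show whether a marker was expressed. Cd244, a receptor of natural killer cells and other leucocytes picked out after its values were seen, was at 2.97 in KO and -0.56 in WT ISC, and at 1.57 in KO and -1.82 in WT TA. It was thus higher in KO where Tlr4 was, but in AE it was lower, at -1.44 in KO and 0.06 in WT, and in CO it was at the lowest value of both groups. Ptpn22, a leucocyte phosphatase, came from the planned ranking of genes least like Tlr4 and was set beside the leucocyte genes afterwards. It was 1.53 higher in KO ISC and 1.16 higher in KO AE, and at 0.69 in both genotypes in TA. Cd74, the invariant chain of MHC class II, had KO minus WT differences of -2.55 for CO and -1.64 for AE. Its differences for TA and ISC were 0.69 and 0.19. In WT, Cd74 was at 8.67 in ISC and at 7.79 in AE, which were sorted as negative for CD45. It cannot therefore be read here as a gene of leucocytes alone. Lyz1, the only 1 of 6 Paneth cell markers in the tables, was higher in KO by 3.20 in CO, 2.11 in AE, 1.64 in TA and 1.20 in ISC. The part of other cell types in the Tlr4 and Tlr2 values was not tested, and in bulk samples fewer cells of a type and less RNA per cell cannot be told apart.

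Genes with patterns most like each receptor were ranked by Pearson's r over the 8 group values, which share cell types and mice and are not independent. For Tlr4 these were Mctp1 (r = 0.94), the amino acid transporter Slc1a4 (0.91), the lipid transporter Abca12 (0.83), the glutathione transferase Gsta3 (0.82) and Trf, which encodes transferrin (0.82). These genes did not all share the difference between genotypes. Abca12 was above 0 on the log2 scale in CO alone, where its KO minus WT difference was -2.80. It was at the lowest value of the group in KO ISC and in TA and AE of both genotypes. Mctp1, in contrast, was 3.30 higher in KO ISC, 1.92 higher in CO and 1.03 higher in TA. In AE, however, Mctp1 was at the lowest value of both groups. The lowest correlations were those of Clca4b (-0.79), Ptpn22 (-0.77) and Cd74 (-0.76).

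For Tlr2 the gene most like it was Smarcad1 itself (r = 0.90), with KO minus WT differences of -0.88 for TA, -0.87 for CO, -0.77 for ISC and -0.60 for AE. It was, like Tlr2, lowest in AE in each genotype. The next were Apobec3, a cytidine deaminase that restricts retroviruses (0.83), Trim24 (0.80), Ascl2 (0.78) and the laminin chain Lamb3 (0.78). Apobec3 was lower in KO in every cell type, with differences from -0.94 to -0.25. The least like were the enterocyte genes Slc6a19, a transporter of neutral amino acids (-0.94), Apob, the apolipoprotein of chylomicrons (-0.88), and the carboxylesterase Ces2e (-0.85). Between Tlr2 and Tlr4, r was 0.45 and Spearman's rho 0.31 over the same 8 values.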

How the data were processed

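RNA from the sorted cells was made into directional poly(A) libraries with 15 PCR cycles and read as 50 bp single ends. Per the labels and the study's methods, the authors trimmed reads with Trim Galore 0.4.4, aligned them with HISAT2 2.1.0 to GRCm38, counted reads over merged exons in SeqMonk and tested raw counts with DESeq2. The deposited tables hold genes under a false discovery rate of 0.1, with each group's mean log2 reads normalised to total reads; whether counting used strand is not given in the sources used here. The authors' own adjusted p-values and fold changes were not used. All tables gave each gene the same 8 group means. Here, differences, ranks, correlations and read numbers were computed from these means with Python 3.11.15, numpy 2.4.6 and pandas 2.3.3. The difference and correlation steps were tested on simulated data, but the ranks of differences and the read numbers were not. The planned tests of single libraries could not be made on group means. Named genes were Tlr2, Tlr4, Smarcad1, members of the pathway and marker lists and, for each receptor, the 5 genes most and 3 least like it. Tnip1 and Cd244 were added after their values were seen. Members and lists were chosen with earlier results of these data known.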

Additional observations from a re-analysis of the deposited data

How the results depend on the processing

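No paired analysis was possible because the tables hold group means, and for the same reason leaving out each replicate was not run. Of 76 recomputed values, 33 stayed within the limits set, 42 moved and 1 reversed. Of the 33, 10 came from a filter that only keeps or drops a value. Another 12 came from raising values under 0.1 where no value was that low. These could not move, so they say nothing on stability. The reversed one was Tlr2 in WT CO minus ISC, 0.62 as deposited and -0.47 relative to the median of genes not listed. A pseudocount of 1 gave KO minus WT differences for Tlr4 of 0.53 in AE, 0.23 in TA and 1.73 in ISC, and for Tlr2 of -0.32 in AE, -1.26 in TA and -1.12 in ISC. With it, Tlr4 in WT was -0.19 (TA), -0.17 (AE) and 4.23 (CO) relative to ISC, and Tlr2 in AE -2.26. Raising values under 0.1 to 0.1 gave Tlr4 differences of 1.13 in TA and 2.38 in AE, WT levels of -0.90 in TA and AE relative to ISC, and an excess of Tlr2 per kb of 7.14 in TA and 4.70 in AE. Relative to the median of genes not listed, the KO minus WT differences were 3.64, 2.22, 3.47 and 0.21 for Tlr4 and -1.63, -1.71, -0.44 and -1.04 for Tlr2 in ISC, TA, AE and CO. The WT levels relative to ISC were then -2.50 (TA), -4.03 (AE) and 5.75 (CO) for Tlr4 and -0.82 (TA) and -5.11 (AE) for Tlr2. The longest transcript as length gave a Tlr2 excess of 6.26, 7.94, 5.18 and 0.048 in WT ISC, TA, AE and CO. Chosen after seeing the data, 0.5 in place of 0 reads gave Tlr4 differences of 2.94 in TA and 3.87 in AE, and the ratio of summed reads gave at least 2.32 in TA and 3.12 in AE. Genes of the 82 at least 1 apart in ISC numbered 28, or 17 with a pseudocount. Of the 5 genes most like Tlr4, 3 remained with a pseudocount, and of those most like Tlr2, 3 remained by Spearman's rho. The planned filter that kept a difference only where KO or WT was at least 0 left out Tlr4 in TA and AE, where both values were below 0. A pseudocount or a raised floor acts alike on KO and WT, so neither could reverse a difference. Putting 0.5 for 0 reads could only widen the Tlr4 differences. Relative to the median of genes not listed, the direction could change, but it was kept for both genes in each cell type. The ratio of summed reads also kept it for Tlr4 in TA and AE. The cause of each shift was not tested. Tlr4 in WT TA and AE was at 5 and 6 reads in 1 library each. Whether read depth or the number of sorted cells set this was not tested.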
